A study of Mus musculus with 6 samples.

Results

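The 44 genes described here either mark hepatic stellate cells and related mesenchymal cells of the liver or encode the extracellular matrix that such cells make and remodel. They were taken by gene name, and each of the 44 names matched exactly 1 row of the 54600 genes in the deposited table. RNA was sequenced from liver tissue of mice kept on a high-fat diet for 16 weeks. Of the 6 libraries, 3 are labelled wild type (WT1, WT2 and WT3) and 3 hepatocyte-specific knockout of HIF-2α (KO1, KO2 and KO3), so the diet is shared by both groups and no library comes from another diet. HIF-2α is the transcription factor subunit, encoded by Epas1, that oxygen marks for breakdown and that builds up in hypoxia, and the comparison concerns its role in fatty liver disease on this diet. The strain, sex and age of the mice and the promoter that drove the deletion are not given in the sources used here. The labels do not say that each library came from its own animal, so a p-value given here measures only the spread between these samples, which may be technical.

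Quiescent stellate cells lie between hepatocytes and the sinusoidal endothelium and store vitamin A as retinyl esters. In injured liver they can become myofibroblasts, which take on contractile proteins such as smooth muscle actin and secrete fibrillar collagens, with TGF-β and PDGF as the best known signals. Portal fibroblasts and vascular smooth muscle carry many of the same genes, hepatocytes secrete plasma fibronectin, and endothelial cells make type IV collagen, so the 44 genes are not confined to stellate cells. These are bulk samples, in which fewer cells of a type and less RNA per cell cannot be told apart.

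Promoter sequences are shown first for the contractile genes Acta2 and Myl9 and the basement membrane collagen genes Col4a1 and Col4a2. They come from RefSeq on GRCm38.p6 (the mm10 build), in windows of 300 bases that run from 250 bases before to 50 bases after a gene's start, and 31 of the 44 genes had a window. Distances below are to the start on which the RefSeq window is built, and other annotations can differ. In GENCODE, Acta2 (minus strand) begins at base 34255590, inside its window and ahead of both marked stretches. Acta2 and Myl9, which encode smooth muscle actin and a myosin light chain, are shown because serum response factor is known to drive contractile genes through an element named the CArG box, here in capitals. For Acta2 (chr19:34255324-34255623, minus strand) the capitals mark a pair of CArG boxes that each hold 1 inner G or C, at 84 and 34 bases before the start:
Acta2: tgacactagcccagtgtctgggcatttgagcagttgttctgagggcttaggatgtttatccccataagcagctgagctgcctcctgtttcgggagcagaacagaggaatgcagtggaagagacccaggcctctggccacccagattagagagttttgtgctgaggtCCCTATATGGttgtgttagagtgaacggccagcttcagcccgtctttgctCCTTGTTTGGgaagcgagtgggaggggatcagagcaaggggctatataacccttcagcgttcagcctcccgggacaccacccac
For Myl9 (chr2:156775214-156775513, plus strand) the capitals mark a CArG box with no inner G or C, 161 bases before the start:
Myl9: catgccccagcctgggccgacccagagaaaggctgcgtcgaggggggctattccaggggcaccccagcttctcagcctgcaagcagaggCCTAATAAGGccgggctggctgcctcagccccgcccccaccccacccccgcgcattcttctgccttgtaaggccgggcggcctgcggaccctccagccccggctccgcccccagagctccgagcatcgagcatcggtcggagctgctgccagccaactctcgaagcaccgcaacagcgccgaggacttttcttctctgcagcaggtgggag
Col4a1 and Col4a2, which encode the paired chains of type IV collagen, start head to head on opposite strands of chromosome 8, and their windows share 78 bases (chr8:11312777-11312854, plus strand). The capitals mark the stretch between the annotated starts of the 2 genes, which lies in both genes:
Col4a1 and Col4a2: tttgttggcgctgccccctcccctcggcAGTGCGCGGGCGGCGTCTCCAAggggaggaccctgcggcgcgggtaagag

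Matches to short motifs on either strand were counted in the 34 windows of the 31 genes and in all 32851 windows of the table. A CArG box with no inner G or C was found in 1 of the 34 windows (Myl9, 2.94%) and in 1.63% of all windows. With 1 inner G or C allowed, 9 of 34 windows held a match (26.5%, against 8.5% of all windows), and the 9 genes were Acta2, Col1a2, Col6a3, Gsn, Lrat, Mmp14, Myl9, Tgfbr2 and Timp3. The core letters known from HIF binding sites, ACGTG or GCGTG, were in 17 of 34 windows (50%) and in 43.8% of all windows. TATAAA was in 4 of 34 (11.8%, against 13.6%) and CCAAT in 13 of 34 (38.2%, against 37.4%). A match is a description of the letters and not of a bound site.

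Expression is given in TPM, a length-corrected share of the transcripts of a library, so levels can be compared between genes but the read depth is unknown. A library held 11013 to 11708 genes at or above 1 TPM. A gene was tested with limma on log2(TPM + 1) if 3 or more libraries reached 1 TPM, which left 11440 genes. The targeted gene went against the labels: Epas1 (chromosome 17, 86753700 to 86833410) was at 23.8, 26.0 and 21.0 TPM in WT1 to WT3 and at 26.6, 35.1 and 29.4 TPM in KO1 to KO3 (log2 difference +0.34, SE 0.15, limma, unadjusted p = 0.050 and adjusted p = 0.993). Groups are therefore named below by their labels only. The TPM scale placed 74.5% of all tested genes above 0 (higher in the libraries labelled KO), with a median log2 difference of +0.09. Median-ratio scaling, which divides each library by its median ratio to a common reference, moved that median to about 0 (49.6% above 0), and it is given below beside each group of genes. With that scaling Epas1 overlapped between the groups, at +0.24 (limma, unadjusted p = 0.0970).

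Most of the 44 genes were expressed at low to moderate levels. Averaged over the 6 libraries, 7 were below 1 TPM, 16 between 1 and 5 TPM, 15 between 5 and 20 TPM and 6 at or above 20 TPM. Fn1 (fibronectin) alone made up 30.1% to 34.8% of the summed TPM of the 44 genes in a library, Dcn (decorin) 14.9% to 16.8%, Ecm1 9.45% to 12.3% and Bgn (biglycan) 6.25% to 7.50%. The 7 genes under the filter, and so not tested, were Col1a1, Col5a2, Fbn1, Timp1, Loxl1, Loxl2 and Thy1. None of the 37 tested genes passed the filter through the libraries of 1 label alone. The stellate cell markers Reln, Colec11, Colec10 and Lrat were present in every library. Genes of activated stellate cells and fibroblasts differed in level. Col1a1, Timp1 and Thy1 were mostly below 1 TPM, whereas Col1a2, Col3a1, Tagln and Lum reached 1 TPM in all 6 libraries and Acta2 in 5.

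None of the 37 tested genes passed the threshold of an adjusted p below 0.05 (limma, Benjamini-Hochberg over all 11440 genes, lowest adjusted p 0.993), and 0.00874% of all tested genes passed it (1 gene). The log2 difference was above 0 for 35 of the 37, with a median of +0.16, beside 74.5% and +0.09 for all tested genes. At an unadjusted p below 0.05, 8 of 37 were found, each higher in the libraries labelled KO: Dpt, Gsn, Tagln, Acta2, Lum, Col1a2, Col3a1 and Col6a1. That level was reached by 3.15% of all tested genes, and by 2.76% in the higher direction. After median-ratio scaling the median of the 37 genes was +0.07, with 26 above 0, and 2 of the 8 (Dpt and Gsn) kept an unadjusted p below 0.05, beside 2.57% of all tested genes. The count also depended on single libraries, as did the share of all tested genes, given in brackets. It was 2 without KO3 (3.71%), 3 without WT1 (4.34%) and 3 without WT2 (2.55%). It was 4 without KO2 (2.96%), 4 without WT3 (2.12%) and 6 without KO1 (4.24%). Dpt and Gsn were among the genes left each time.

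All 3 values labelled KO lay above all 3 labelled WT for 11 of the 37 tested genes, and for none did they all lie below. Over all tested genes the shares were 8.23% and 0.857%. For a gene so separated, an exact two-sided permutation test over the 6 libraries gave p = 0.1, the smallest that 3 against 3 can give. After scaling, 6 of 37 kept this separation (Tagln, Col1a2, Col6a1, Lum, Dpt and Gsn), beside 3.44% of all tested genes.

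**Figure D1:**
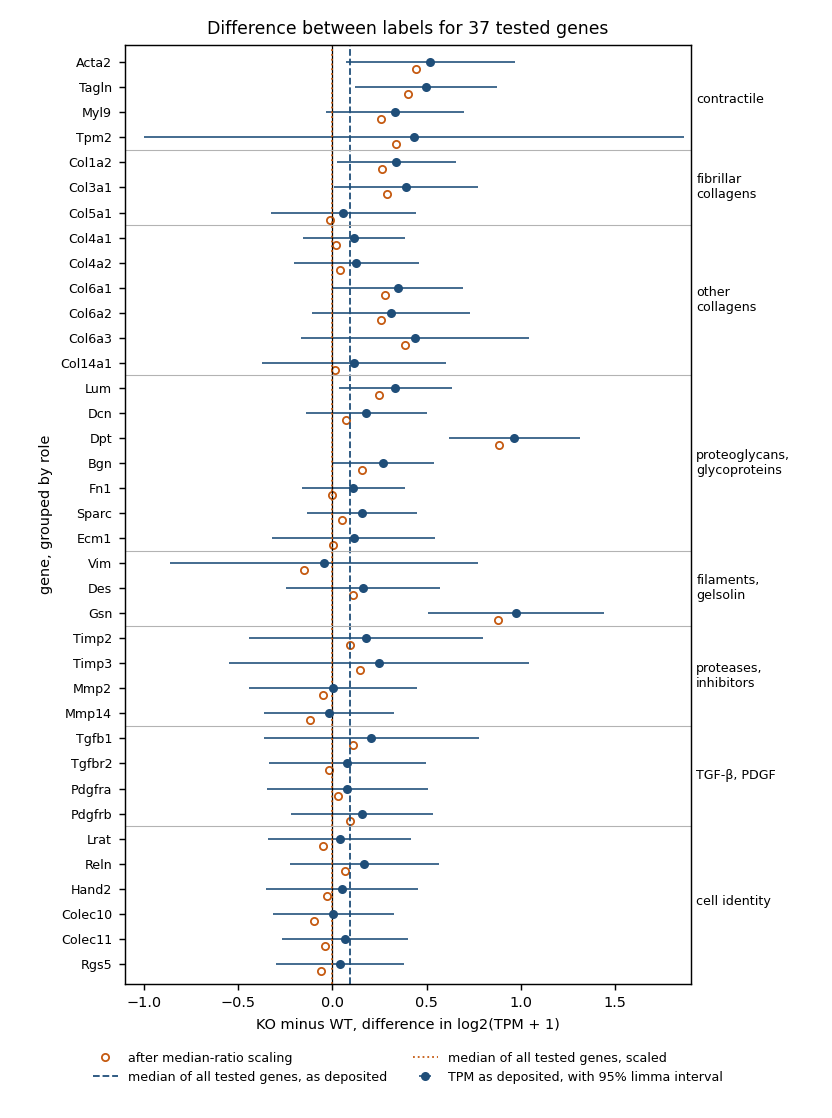
Difference between the libraries labelled KO and WT on the log2(TPM + 1) scale for the 37 tested genes, grouped by role. Filled points with bars are limma estimates with 95% intervals on TPM as deposited, open points are the estimates after median-ratio scaling, and vertical lines mark the medians of all 11440 tested genes. Dpt (+0.97) and Gsn (+0.97) lie apart from the other genes, and the cell identity genes lie near 0.

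The contractile genes had the highest median difference of any role with a tested gene. All 4 were above 0, as deposited and after scaling (median log2 difference +0.46 and +0.37). Acta2, which encodes the smooth muscle actin used as the standard mark of activated stellate cells, was at 0.823, 1.28 and 1.72 TPM in WT1 to WT3 and at 1.95, 2.14 and 2.59 TPM in KO1 to KO3. Every library labelled KO was above every library labelled WT, the nearest being KO1 and WT3. The WT mean was 1.27 ± 0.446 and the KO mean 2.23 ± 0.328 TPM (SD, n = 3 each), 1.75-fold apart, and the log2 difference was +0.52 (SE 0.19, limma, unadjusted p = 0.0284). After scaling the groups overlapped, at +0.45 (unadjusted p = 0.0783).

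Acta2 is a close copy of 3 other muscle actin genes, and the sources used here do not say how reads matching several of them were counted. Acta1, the skeletal muscle actin, ran the opposite way: it was at 1.31, 0.446 and 1.76 TPM in WT1 to WT3 and at 0, 0.048 and 0 TPM in KO1 to KO3. Summed over Acta1, Acta2, Actc1 and Actg2, muscle actin was at 2.37, 2.03 and 3.52 TPM in WT1 to WT3 and at 2.21, 2.94 and 3.28 TPM in KO1 to KO3. That sum overlapped between the groups and differed by +0.08 on the log2(TPM + 1) scale (exact two-sided permutation p = 0.8), so the separation seen for Acta2 was not present for the muscle actins together. The sum was chosen after the values were seen.

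Tagln encodes transgelin, an actin-binding protein of smooth muscle. It was at 3.32, 4.87 and 3.97 TPM in WT1 to WT3 and at 5.36, 6.09 and 6.85 TPM in KO1 to KO3. The groups did not overlap, before or after scaling. The WT mean was 4.05 ± 0.777 and the KO mean 6.10 ± 0.744 TPM (SD, n = 3 each), with a log2 difference of +0.50 (SE 0.16, limma, unadjusted p = 0.0167), or +0.40 after scaling (unadjusted p = 0.0576). Myl9, a regulatory light chain of smooth muscle myosin, was at 1.41, 1.75 and 1.58 TPM in WT1 to WT3 and at 2.15, 1.92 and 2.71 TPM in KO1 to KO3. These groups did not overlap as deposited but did after scaling, and the limma p of the difference (+0.33, SE 0.16) was 0.0701 unadjusted. Tpm2, a tropomyosin, differed more within each label than between the labels and is described with the replicate numbers below.

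**Figure D2:**
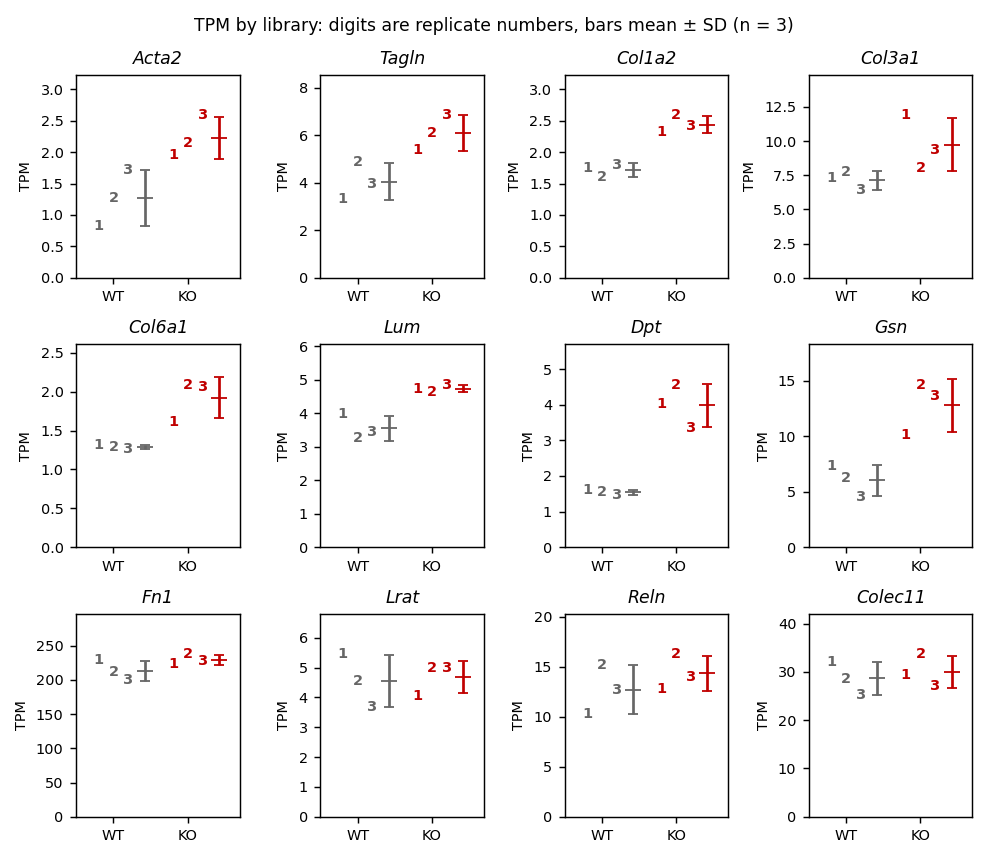
TPM in each library for 12 of the genes, with WT in grey and KO in red. Digits are replicate numbers, and bars give the mean ± SD of 3 libraries. Groups are separated for Acta2, Tagln, Col1a2, Col3a1, Col6a1, Lum, Dpt and Gsn and overlap for Fn1, Lrat, Reln and Colec11.

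The fibrillar collagens, which form the stiff fibres of scar tissue, were low, and type I and III collagen values were higher in the libraries labelled KO. Over the 3 that were tested the median log2 difference was +0.34 (+0.26 after scaling, when Col5a1 was below 0). Col1a1, which encodes the major chain of type I collagen, was under the filter, at 0.708, 0.860 and 0.572 TPM in WT1 to WT3 and at 1.43, 0.928 and 1.14 TPM in KO1 to KO3. Its partner chain Col1a2 was at 1.75, 1.60 and 1.80 TPM in WT1 to WT3 and at 2.32, 2.59 and 2.41 TPM in KO1 to KO3. Both genes were separated by label as deposited, and after scaling Col1a2 was and Col1a1 was not. For Col1a2 the WT mean was 1.72 ± 0.107 and the KO mean 2.44 ± 0.139 TPM (SD, n = 3 each), with a log2 difference of +0.34 (SE 0.13, limma, unadjusted p = 0.0378, and unadjusted p = 0.0777 after scaling).

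Col3a1, the single chain of type III collagen, was at 7.27, 7.72 and 6.39 TPM in WT1 to WT3 and at 11.9, 8.03 and 9.32 TPM in KO1 to KO3. KO1 was the highest, and KO2 was only just above WT2. The WT mean was 7.13 ± 0.674 and the KO mean 9.75 ± 1.97 TPM (SD, n = 3 each; log2 difference +0.39, SE 0.16, limma, unadjusted p = 0.0464), and the groups overlapped after scaling. The type V chains, which help to set fibril width, were at 1.28 to 1.85 TPM for Col5a1 and 0.386 to 0.625 TPM for Col5a2. Col5a1 overlapped between the labels, whereas Col5a2, under the filter, was separated as deposited (0.386 to 0.469 TPM against 0.554 to 0.625 TPM) but not after scaling. Col3a1 and Col5a2 are neighbours on chromosome 1, on opposite strands and 24614 bases apart.

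Among the other collagens, those of type VI had larger differences than those of type IV. All 6 genes of this role were above 0, as deposited and after scaling (median log2 difference +0.22 and +0.15). Col6a1, a chain of the beaded filaments that surround cells, was at 1.32, 1.29 and 1.27 TPM in WT1 to WT3 and at 1.62, 2.09 and 2.06 TPM in KO1 to KO3. The libraries labelled WT were almost level and all lay below those labelled KO, also after scaling (log2 difference +0.35, SE 0.15, limma, unadjusted p = 0.0481). Its partner chains Col6a2 and Col6a3 differed by +0.31 and +0.44, but KO1 lay within the WT range for both. Col6a3 was at 0.779 TPM in KO1 and at 2.24 TPM in KO2, its highest library, and its limma interval ran from -0.17 to +1.04.

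Col4a1, the basement membrane collagen whose start region is printed above, was at 5.87, 5.87 and 5.84 TPM in WT1 to WT3 and at 6.02, 6.58 and 6.72 TPM in KO1 to KO3. The groups were separated, but by a small step: the WT mean was 5.86 ± 0.0199 and the KO mean 6.44 ± 0.372 TPM (SD, n = 3 each), the log2 difference was +0.12 (limma, unadjusted p = 0.350) and scaling brought it to +0.02, with overlap. Col4a2, from the opposite strand, had the near equal difference of +0.13 and overlapped, at 2.75 to 3.5 TPM and 3.30 to 3.97 TPM. The annotated genes share 22 bases, and reads in that overlap cannot be assigned without strand. Col14a1, a collagen on the surface of fibrils, was at 8.52 to 14.2 TPM, with both of these extremes in libraries labelled KO.

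Proteoglycans and matrix glycoproteins held the 4 most abundant of the 44 genes and also the member with the smallest p, Dpt. All 7 that were tested were above 0, with a median log2 difference of +0.18, and 6 of 7 after scaling, with a median of +0.07. Dpt encodes dermatopontin, a small matrix protein that binds decorin and collagen. It was at 1.61, 1.55 and 1.46 TPM in WT1 to WT3 and at 4.03, 4.56 and 3.34 TPM in KO1 to KO3. The libraries labelled WT were close together, and all lay well below those labelled KO. The WT mean was 1.54 ± 0.0765 and the KO mean 3.98 ± 0.612 TPM (SD, n = 3 each), 2.59-fold apart, and the log2 difference was +0.97 (SE 0.15, limma, unadjusted p = 2.63e-04 and adjusted p = 0.993). After scaling it was +0.89 (unadjusted p = 1.97e-04), and a block by replicate number gave an unadjusted p of 8.02e-04.

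Lum and Dcn encode lumican and decorin, small proteoglycans that bind collagen fibrils, from neighbouring genes on chromosome 10. Lum was at 3.98, 3.26 and 3.45 TPM in WT1 to WT3 and at 4.74, 4.64 and 4.86 TPM in KO1 to KO3. The libraries labelled KO were nearly level and all lay above those labelled WT, also after scaling (log2 difference +0.34, SE 0.13, limma, unadjusted p = 0.0325, and unadjusted p = 0.0742 after scaling). Dcn was far more abundant, at 109.8, 102 and 87.8 TPM in WT1 to WT3 and at 103, 124 and 113 TPM in KO1 to KO3. Its groups overlapped, since WT1 was above KO1, and its log2 difference was +0.18 (SE 0.14, limma, unadjusted p = 0.225).

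Fn1, the most abundant of the 44, was at 228, 211 and 199 TPM in WT1 to WT3 and at 223, 238 and 228 TPM in KO1 to KO3. Its difference of +0.11 (SE 0.12) had a limma interval from -0.16 to +0.38, and scaling brought it to about 0. Bgn, a proteoglycan like decorin, was at 38.3 to 42.3 TPM for WT and 45.9 to 52.0 TPM for KO, separated as deposited but not after scaling (+0.27, and +0.16 scaled). Sparc, a collagen-binding protein, and Ecm1, a secreted matrix glycoprotein, overlapped. Ecm1 was highest in KO2 (97.3 TPM) and lowest in WT3 (60.4 TPM). Fbn1, the microfibril protein fibrillin, was under the filter, at 0.254 to 0.394 TPM and 0.434 to 0.495 TPM, and stayed separated after scaling.

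Gsn, which encodes the actin-severing protein gelsolin, had a difference as large as that of Dpt. It was at 7.31, 6.22 and 4.57 TPM in WT1 to WT3 and at 10.1, 14.7 and 13.6 TPM in KO1 to KO3. All libraries labelled KO were above all labelled WT, before and after scaling. The WT mean was 6.03 ± 1.38 and the KO mean 12.8 ± 2.40 TPM (SD, n = 3 each), 2.12-fold apart, with a log2 difference of +0.97 (SE 0.20, limma, unadjusted p = 0.00155 and adjusted p = 0.993) and of +0.88 after scaling (unadjusted p = 0.00178). Gelsolin is made by many cell types, and the bulk value does not say which cells carried it.

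The intermediate filament genes of the same role did not follow Gsn. Vim, the filament protein vimentin of mesenchymal and immune cells, was at 11.3, 18.5 and 9.88 TPM in WT1 to WT3 and at 15.2, 17.2 and 7.0 TPM in KO1 to KO3. The highest library was labelled WT and the lowest KO, and the log2 difference was -0.05 with a limma interval from -0.86 to +0.77. Des, the filament protein desmin of muscle and rodent stellate cells, was at 0.696 to 1.12 TPM and 0.951 to 1.44 TPM, with overlap.

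Matrix proteases and their inhibitors showed no separation for any gene. Of the 4 tested, 3 were above 0 with a median of +0.09, and 2 of 4 after scaling, with a median of +0.02. Timp1, the inhibitor of matrix metalloproteases that is known to be strongly induced in fibrotic liver, was at 0.245, 0.250 and 0.178 TPM in WT1 to WT3, at 0.609 TPM in KO1 and listed at 0 in KO2 and KO3. It was thus barely present in any library, and the libraries labelled KO held both its highest and its lowest values. Timp2 and Timp3, related inhibitors, were at 2.60 to 6.43 TPM and 6.16 to 15.1 TPM over the 6 libraries, with overlap. Mmp2 and Mmp14, a gelatinase and the membrane-bound protease that activates it, differed by +0.01 (interval -0.44 to +0.45) and -0.02 (interval -0.36 to +0.33). Loxl1 and Loxl2, which encode enzymes of the lysyl oxidase family that crosslink collagen and elastin, were under the filter. Loxl1 was separated, at 0.2 to 0.404 TPM against 0.494 to 0.874 TPM, also after scaling, and Loxl2 overlapped.

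The signalling genes also overlapped, all 4 with differences above 0 (median +0.12) and 3 of 4 after scaling (median +0.06). Tgfb1, the main TGF-β ligand, was at 4.66, 7.04 and 5.11 TPM in WT1 to WT3 and at 6.09, 9.43 and 4.77 TPM in KO1 to KO3. KO2 was the highest and WT1 the lowest, with a difference of +0.21 (SE 0.24) that had a limma interval from -0.36 to +0.78. Its receptor gene Tgfbr2 was at 5.51 to 8.61 TPM. Pdgfrb, the PDGF receptor of stellate cells and pericytes, was at 1.17, 0.884 and 1.04 TPM in WT1 to WT3 and at 1.08, 1.54 and 1.19 TPM in KO1 to KO3. KO2 was the highest, KO3 was just above WT1, and KO1 lay within the WT range (+0.16, interval -0.22 to +0.53). Pdgfra, the other PDGF receptor, was at 0.779 to 1.39 TPM.

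The genes grouped here as marks of the cells rather than their matrix were nearly level between the labels. All 6 tested were above 0, but by a median of +0.05, which is under the +0.09 of all tested genes, and 1 of 6 was above 0 after scaling (median -0.05). This holds for the markers of this group only. Des and Pdgfrb, placed in other roles, were each at +0.16, and the 12 further stellate cell markers tested below had a median of +0.15 (+0.07 after scaling). Lrat, the enzyme that forms retinyl esters, was at 5.45, 4.54 and 3.69 TPM in WT1 to WT3 and at 4.06, 4.995 and 4.99 TPM in KO1 to KO3. The groups overlapped, and WT1 was the highest (difference +0.04, limma interval -0.34 to +0.42). Reln, the secreted protein reelin, was at 10.3, 15.1 and 12.6 TPM in WT1 to WT3 and at 12.7, 16.2 and 14.0 TPM in KO1 to KO3. Each library labelled KO was above the WT library of its number, but the groups overlapped (+0.17, interval -0.22 to +0.57). Colec11, a collectin made by stellate cells, was at 32.2, 28.6 and 25.2 TPM in WT1 to WT3 and at 29.4, 33.7 and 27.1 TPM in KO1 to KO3. Its groups overlapped too (+0.07, interval -0.27 to +0.40).

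The remaining markers showed the same overlap. Colec10, a related collectin, was at 8.48 to 11.3 TPM, Hand2, a transcription factor of stellate cells, at 2.09 to 3.31 TPM, and Rgs5, a pericyte gene, at 10.6 to 14.9 TPM. Thy1, a surface protein of portal fibroblasts that T cells also carry, was under the filter at 0.378 to 1.41 TPM.

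A ratio of genes within a library does not depend on how the library was scaled. Summed TPM of the 4 contractile genes over that of the 7 marker genes was 0.235, 0.208 and 0.155 in WT1 to WT3 and 0.371, 0.263 and 0.227 in KO1 to KO3, and the groups overlapped, since KO3 was below WT1. With Tpm2 left out, the ratio for Acta2, Tagln and Myl9 was 0.0759, 0.107 and 0.110 in WT1 to WT3 and 0.127, 0.123 and 0.180 in KO1 to KO3, and the libraries labelled KO were all above those labelled WT. The same ratio for the 5 fibrillar collagens was 0.158, 0.161 and 0.168 in WT1 to WT3 and 0.242, 0.167 and 0.218 in KO1 to KO3, so KO2 lay among the WT values. For proteoglycans and matrix glycoproteins, the ratio was 6.62, 6.28 and 6.31 against 6.35, 6.65 and 7.28, with overlap, and the ratios of the other roles overlapped as well. These ratios, and the omission of Tpm2, were chosen after the values were seen and were not tested. Acta2, Tagln and Myl9 were each separated as deposited, so the separation of their ratio is not a separate finding. The contractile sums count Acta2 without the other muscle actins. With the summed muscle actins (3.52 TPM in WT3 and 2.21 TPM in KO1) in place of Acta2, WT3 lies above KO1 and the groups overlap. The 7 marker genes were the only denominator used.

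**Figure D3:**
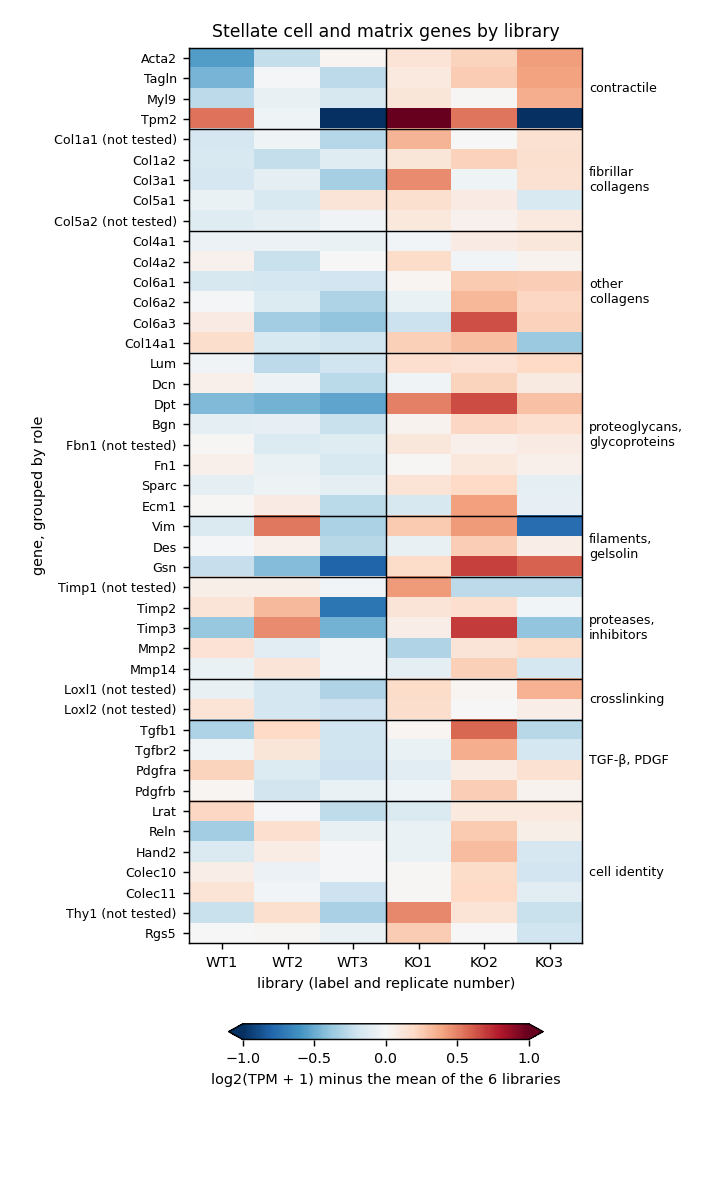
log2(TPM + 1) of each of the 44 genes in each library, minus its mean over the 6 libraries, grouped by role. Red is above and blue below that mean, and values beyond 1 in either direction take the end colour. KO2 holds most of the darker red cells outside the contractile genes and WT3 many of the blue ones, while Dpt and Gsn are blue in every library labelled WT and red in every one labelled KO.

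Highest and lowest values fell unevenly over the libraries, and the count above 0 varied with the library left out. Of the 37 tested genes, 22 had their highest value in KO2, and 19 had their lowest in WT3. Over all tested genes these libraries also deviated most from the mean of the 6 libraries, by a median of +0.09 for KO2 and -0.16 for WT3 on the log2 scale. Without KO2, 25 of the 37 were above 0 (median +0.09), and without WT3, 28 (median +0.11). The count was 33 without KO1, 34 without WT1 or without WT2 and 35 without KO3. These counts are not given here for all tested genes, and their cause was not tested. After scaling, 13 of the 37 had their highest value in KO2 and 12 in KO3, and 12 their lowest in WT1. Of the contractile genes, Acta2, Tagln and Myl9 followed another order, highest in KO3 and lowest in WT1, while Tpm2 was highest in KO1 and lowest in WT3.

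Several genes varied with the replicate number in both labels. Tpm2, the tropomyosin of the contractile group, was at 11.7, 7.43 and 2.94 TPM in WT1 to WT3 and at 18.3, 11.6 and 3.24 TPM in KO1 to KO3. The libraries numbered 1 were the highest in each label and those numbered 3 the lowest, a range of 3.96-fold within WT and 5.65-fold within KO. Within pairs of 1 number, KO was 1.57-, 1.57- and 1.1-fold of WT. The limma p of the difference (+0.43) was 0.502 unadjusted without the number and 0.0289 unadjusted with the number as a block (adjusted p = 0.724). Summed over Tpm1 to Tpm4, tropomyosin was at 59.1 to 80.9 TPM for WT and 71.6 to 102 TPM for KO, with overlap.

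Vim, Timp3 and Timp2 also took the same order of numbers in both labels. Vim and Timp3 were highest in the libraries numbered 2, and Timp3 was at 6.63, 12.8 and 6.16 TPM in WT1 to WT3 and at 9.38, 15.1 and 6.53 TPM in KO1 to KO3. In all, 9 of the 37 genes had 1 order in both labels (24.3%, beside 28.6% of all tested genes). The median SD within a label was 0.18 on the log2 scale for the 37 genes and 0.21 for all tested genes, from 0.05 for Col4a1 to 1.0 for Tpm2. With the number as a block in the fit, 8 of the 37 had an unadjusted limma p below 0.05, beside 6.18% of all tested genes (5.26% in the higher direction). With the block and scaling together, 4 of 37 did (Acta2, Dpt, Gsn and Tagln), beside 4.46% and 2.19%. Compared with the fit without a block, the block alone left out Col1a2 and Col6a1 and brought in Bgn and Tpm2. KO was above WT in all 3 pairs for 15 of the 37 genes, and for 8 after scaling, beside 26.9% and 12.1% of all tested genes.

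**Figure D4:**
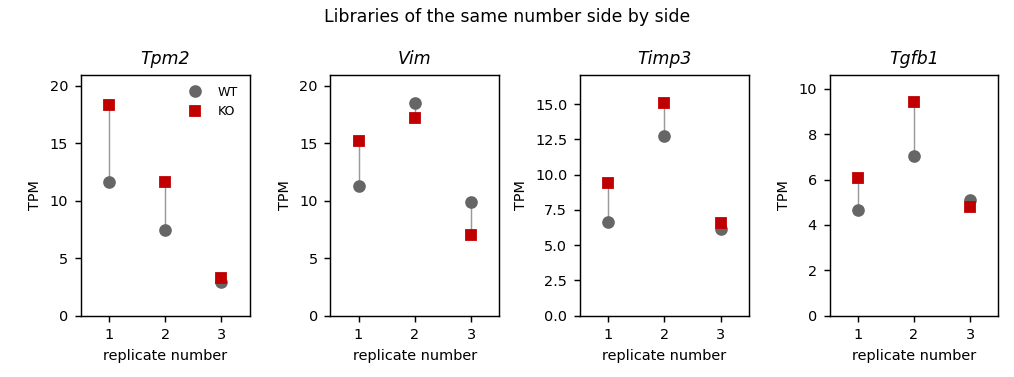
TPM of Tpm2, Vim, Timp3 and Tgfb1 by replicate number, with a grey circle for WT, a red square for KO and a line joining libraries of the same number. Tpm2 is highest in both libraries numbered 1 and lowest in both numbered 3, while the other genes peak in the libraries numbered 2.

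Further genes of the matrix and its signals were read from lists of 102 genes that do not overlap the 44. Of the 57 tested, 45 were above 0 (78.9%, median +0.13). After scaling 36 were above 0 (median +0.06). An unadjusted limma p below 0.05 was found for 3 of the 57 as deposited and 2 after scaling, beside 3.15% and 2.57% of all tested genes. As deposited, 7 were separated with KO higher and 1 with KO lower, beside 8.23% and 0.857%. After scaling these counts were 2 and 3, beside 3.44% and 3.52%. Serpinh1, the chaperone that folds procollagen, was at 6.21, 6.0 and 5.32 TPM in WT1 to WT3 and at 8.30, 7.84 and 8.52 TPM in KO1 to KO3. It was separated by label before and after scaling (+0.43, SE 0.12, unadjusted p = 0.00834, adjusted p = 0.993). Fbln5, an elastic fibre protein, was at 1.13 to 1.89 TPM and 2.32 to 3.46 TPM (+0.60, unadjusted p = 0.0138), and Pcolce, which enhances the cleavage of procollagen, at 3.09 to 3.75 TPM and 4.44 to 4.98 TPM (+0.33, unadjusted p = 0.0378). Fbln5 kept its separation after scaling and Pcolce did not.

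By list, 14 of 17 tested genes of the TGF-β pathway were above 0 (median +0.12), and 10 after scaling (median +0.03), and the smallest p values were those of Eng, a co-receptor (+0.22), Ccn2, a matrix protein induced by TGF-β (+0.36), and the receptor Tgfbr1 (+0.26), none of them below 0.05 unadjusted. The PDGF ligands had 3 of 3 above 0, also after scaling (Pdgfa +0.38, Pdgfd +0.13, Pdgfc +0.09), with overlap in each. Collagen processing and crosslinking had 12 of 13 above 0 (median +0.12), and 8 after scaling (median +0.02), with Crtap, a part of the collagen prolyl hydroxylase complex, at +0.33, next by p after Serpinh1 and Pcolce. Other structural matrix genes had 13 of 18 above 0 (median +0.20), and 12 after scaling (median +0.10), with Efemp1 at +0.24 and Col18a1 at +0.22, next by p after Fbln5. Other proteases and inhibitors had 3 of 6 above 0 (median +0.04, and -0.06 after scaling), with Mmp15 at +0.17, Mmp19 at -0.14 and Adam17 at +0.11.

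Markers of the cells that could carry these genes were read from their own lists. Of 15 further stellate cell markers, 12 were tested and all 12 were above 0, and 9 after scaling (median +0.15 and +0.07). Their summed TPM was 59.9 to 63.4 for WT and 64.1 to 80.005 for KO, led by KO2, so the sums did not overlap as deposited. Median-ratio scaling divides WT3 (59.9 TPM) by 0.879 and KO1 (65.0 TPM) by 1.06. That puts WT3 above KO1, so the scaled sums overlap. The 3 of these markers with the smallest p were Angptl6 (+0.23), Rspo3 (+0.24) and Sod3 (+0.17). Portal fibroblast and smooth muscle markers summed to 83.6 to 110.7 TPM and 91.5 to 109.4 TPM, of which Cald1 was the largest part. Of the 15 genes of that list, 5 were tested and all 5 were above 0 (4 after scaling), with Entpd2, an enzyme of portal fibroblasts, at +0.54 (limma, unadjusted p = 0.0396), Mustn1 at +0.44 and Mylk at +0.24. The defining smooth muscle genes Myh11 and Cnn1 and the portal fibroblast genes Clec3b and Pi16 were below 1 TPM in every library.

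As deposited, markers of other cell types overlapped between the labels in summed level, except for a small step in the cholangiocyte list. Kupffer cell and macrophage markers summed to 355 to 514 TPM and 467 to 491 TPM (13 of 15 tested above 0, and 10 after scaling), with the smallest p for Ly6c2 at -0.34, Lyz2 at +0.25 and Trem2 at +0.24. Endothelial markers summed to 181 to 201 TPM and 186 to 226 TPM (14 of 16 above 0, and 6 after scaling), with Lyve1 at +0.38 and Stab1 at +0.31 (limma, unadjusted p = 0.0314 and unadjusted p = 0.0315) and Egfl7 at +0.25. After scaling Lyve1 was still separated (unadjusted p = 0.0315), whereas Stab1 overlapped (unadjusted p = 0.119). Cholangiocyte markers summed to 8.30 to 9.19 TPM and 9.2 to 12.7 TPM, with 2 of 10 tested, and Sox9 was at +0.03, and at -0.03 after scaling. The nearest cholangiocyte sums were 9.189 TPM in WT1 and 9.197 TPM in KO1. Scaling divides WT3 (8.38 TPM) by 0.879 and KO1 by 1.06, which puts WT3 above KO1, so the scaled sums overlap. Lymphocyte and neutrophil markers summed to 4.95 to 15.1 TPM and 9.83 to 13.4 TPM, with 3 of 13 tested (S100a9 +0.73, Jchain +0.34, S100a8 -0.13).

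Hepatocyte markers summed to 70607 to 83431 TPM and 77922 to 98265 TPM, with 12 of 13 above 0 (9 after scaling) and Apoa1 (+0.35), Fgb (+0.34) and Ahsg (+0.20) first by p. In the list for mesothelium, gallbladder, muscle and fat, 6 of 16 genes (Muc5b, Ckm, Myh4, Adipoq, Lep and Prss1) were listed at 0 in every library, and the summed level of 61.5 to 90.4 TPM and 58.8 to 82.2 TPM came mostly from Cela1 and Cfd. The part of these other cells in the differences of the 44 genes was not tested.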

How the data were processed

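The authors deposited 1 table of TPM for 54600 genes in 6 libraries. The tools named in the submitters' processing notes are HISAT2, featureCounts, fastp, limma and DESeq2, on mm10. Their versions and roles and the counting mode (strand, shared reads) are not given in the sources used here. TPM holds no read totals, so depth is unknown, no count model was used and an exact 0 is given as listed at 0. Of 54323 rows with an Ensembl identifier, 51492 matched a symbol in GENCODE M21, which gave the coordinates. A gene entered the test if 3 or more of the 6 libraries reached 1 TPM (11440 genes). The test was limma (version 3.58.1, R 4.3.3) on log2(TPM + 1), two-sided, with a variance trend and Benjamini-Hochberg adjustment over all genes tested. Fold changes on that scale understate changes of low genes. The step was tested on simulated data.

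The 44 genes and all lists were chosen with earlier results of these data known. TPM is given in every library for genes with an unadjusted p below 0.05 and for 17 fixed genes. Of each other list, the 3 tested genes with the smallest p are named, except 1 gene that is not reported here. Tpm2, Timp3, the other genes given by library or by range, the ratios to marker genes and the summed actins and tropomyosins were picked with their values in view. The hepatocyte list has 14 genes, of which 13 matched.

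Libraries correlated at 0.945 to 0.978 (Spearman), and each counts as 1 replicate. Both labels carry the numbers 1 to 3, and nothing says that equal numbers are pairs. Deviations from the group means correlated at 0.16, 0.41 and 0.38 between libraries of the same number and at -0.37 to 0.03 between others. The 3 deviations of a label sum to 0, so positive values for equal numbers push the others down. The contrast is thus partly built in. The numbers were treated as a pairing that comes from the data, and the fit with the number as a block was an alternative. Others were pseudocounts of 0.1 and 5, other filters, median-ratio and quantile scaling, TPM recomputed after removing mitochondrial and the 20 most abundant genes, other variance settings, library weights and leaving out libraries or pairs.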

Additional observations from a re-analysis of the deposited data

How the results depend on the processing

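Across the 22 alternative settings none of the 44 genes was called (adjusted p of at least 0.507). Gsn kept an unadjusted limma p below 0.05 in all 22 and Dpt in the 21 that tested it. The count of 8 such genes became 3 of 21 with a 5 TPM filter, beside 2.75% of all tested genes. It was 2 with median-ratio scaling (2.57%), 2 with quantile normalization (2.59%) and 4 without the most abundant genes (2.7%). When 1 library or pair was left out it was 2 to 6, beside 2.07% to 4.4%. With the replicate block it was 8 (6.18%), and 4 with the block and median-ratio scaling (4.46%). No gene of the whole table was called under either. The 35 genes above 0 became 19 of 21 with the 5 TPM filter. The 11 separated genes became 6 after median-ratio scaling, beside 8.23% and 3.44% of all tested genes. They became 11 to 20 when a library or pair was left out, where fewer values must be separated. The share of all tested genes with libraries left out is not given here, so these last counts cannot be read as a trait of the 44 genes. Over all genes, the 1 called gene became 0 with the 5 TPM filter, no filter, a pseudocount of 5 or quantile normalization, and 0 to 2 when a library or pair was left out. The 360 genes with an unadjusted p below 0.05 became 197 with the 5 TPM filter, 773 with no filter, 707 with the replicate block and 237 to 503 when a library or pair was left out. The sum of all rows of a symbol was not run, because each of the 44 genes had 1 row.

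Differences near 0 changed sign under some settings. Median-ratio scaling, with or without the replicate block, gave -0.014 for Col5a1, -0.00079 for Fn1, -0.050 for Mmp2, -0.017 for Tgfbr2, -0.051 for Lrat, -0.029 for Hand2, -0.096 for Colec10, -0.040 for Colec11 and -0.062 for Rgs5. Quantile normalization gave -0.028 for Col5a1, -0.081 for Mmp2, -0.034 for Tgfbr2, -0.016 for Pdgfra, -0.073 for Lrat, -0.044 for Hand2, -0.11 for Colec10, -0.027 for Colec11 and -0.062 for Rgs5. Library weights gave -0.018 for Mmp2 and -0.00503 for Lrat, a pseudocount of 0.1 gave -0.00798 for Mmp2, and leaving out the most abundant genes gave -0.041 for Mmp2, -0.016 for Lrat, -0.058 for Colec10 and -0.021 for Rgs5. With 1 library or pair left out, the differences ran from -0.035 to 1.06 for Tpm2, -0.028 to 0.23 for Col5a1, -0.053 to 0.33 for Col14a1, -0.064 to 0.26 for Ecm1, -0.27 to 0.32 for Vim, -0.14 to 0.39 for Timp2, -0.040 to 0.55 for Timp3, -0.11 to 0.23 for Mmp2, -0.14 to 0.064 for Mmp14, -0.029 to 0.40 for Tgfb1, -0.081 to 0.19 for Tgfbr2, -0.062 to 0.28 for Pdgfra, -0.12 to 0.23 for Lrat, -0.089 to 0.16 for Hand2, -0.11 to 0.10 for Colec10, -0.019 to 0.16 for Colec11 and -0.076 to 0.15 for Rgs5. The cause of each change was not tested. TPM gives no depth, so the counting error of genes near 1 TPM is unknown.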

Other observations

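Cfd, which encodes the adipocyte serine protease adipsin and stands in the list for mesothelium, gallbladder, muscle and fat, varied with the replicate number far more than with the label. It was at 23.2, 1.15 and 0.385 TPM in WT1 to WT3 and at 22.3, 2.47 and 0 TPM in KO1 to KO3. The libraries numbered 1 were the highest in both labels, as they were for Tpm2, while the fat cell genes Adipoq and Lep were listed at 0 in all 6 libraries. Plin1, a further fat cell gene of that list, was not at 0 in every library but was under the filter. These genes were chosen for mention after their values were seen.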
